A study of Saccharomyces cerevisiae with 6 samples.

Results

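The 10 genes described here encode the enzymes that carry glucose carbon from glyceraldehyde-3-phosphate to ethanol in the budding yeast Saccharomyces cerevisiae. They were taken by name as TDH1, TDH2, TDH3, PGK1, GPM1, ENO1, ENO2, CDC19, PDC1 and ADH1, and all 10 are among the 2850 genes listed in the deposited tables. Polyadenylated RNA was measured by paired-end sequencing in 3 [ESI+] cultures and 3 naive cultures, all of BY4743, a diploid laboratory strain that lacks URA3 and parts of other synthesis genes by design. All cultures grew in rich medium with glucose (YPD) to an optical density of about 0.5, so the groups differ, by their labels, in the [ESI+] state alone. [ESI+] is a heritable, prion-like state tied to the chromatin factor Snt1.

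In the lower part of glycolysis, glyceraldehyde-3-phosphate dehydrogenase (TDH1, TDH2, TDH3) makes NADH, and phosphoglycerate kinase (PGK1) yields ATP. Phosphoglycerate mutase (GPM1), enolase (ENO1, ENO2) and pyruvate kinase (CDC19) then lead to pyruvate, with ATP made again at the last step. Pyruvate decarboxylase (PDC1) and alcohol dehydrogenase (ADH1) turn pyruvate into ethanol and restore NAD+, which keeps glycolysis running in fermenting cells. Their mRNAs are known to be among the most abundant in yeast grown on glucose, and the factors Rap1 and Gcr1 are known to drive many of them.

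Libraries held 1937568, 3896490 and 316485 estimated counts in ESI+ replicates 1, 2 and 3, and 4361435, 1080941 and 5934050 in naive replicates 1, 2 and 3. No pair of libraries was identical. URA3 had 17.8, 26.3 and 333.0 normalised CPM (counts scaled to library size) in ESI+ replicates 1 to 3, against 32.3, 20.4 and 254.8 in naive replicates 1 to 3. Every library thus held some URA3 counts despite the strain label, and both replicate 3 libraries went against it most. MFA1, MFA2 and AGA2 are from a list of genes that a/alpha diploids keep off or low. MFA1 had 3.77, 11.4 and 15.0 normalised CPM in ESI+ and 1.42, 0 and 0.87 in naive replicates 1 to 3. The groups of MFA1 did not overlap, and it was not called (log2 fold change 3.25, edgeR adjusted p = 0.0963). MFA2 had 2, 66 and 0 estimated counts in ESI+ and 5, 0 and 1 in naive replicates 1 to 3. AGA2 had 1, 96 and 37 in ESI+ and 14, 3 and 5 in naive replicates 1 to 3. MFA2 and AGA2 were not among the tested genes. STE4, from the same list, had 70, 739 and 17 estimated counts in ESI+ and 143, 28 and 87 in naive replicates 1 to 3. The groups of STE4 overlapped in normalised CPM, and the other 5 genes of that list were not analysed here. Of the other genes listed as auxotrophy markers, HIS3 had 35.0 to 453 normalised CPM in ESI+ and 32.6 to 50.6 in naive libraries. MET17 had 48.7 to 223 in ESI+ and 54.9 to 109 in naive libraries. The HIS3 and MET17 values were not read for or against the strain label. The part of all these genes in the results, URA3 included, was not tested. ESI+ replicate 2 stands apart in scaling as well, with a TMM factor of 1.94 against 0.68 to 1.26 in the other 5 libraries, and values without some of these libraries are given below. The cultures are bulk samples, so fewer cells with a transcript and less transcript per cell cannot be told apart.

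The copies of TDH and of ENO are similar enough that fragments can match more than 1 of them. In the R64 reference the coding sequences of TDH2 and TDH3 are 95.8% identical over 999 bp, those of TDH1 and TDH2 90.19% and those of TDH1 and TDH3 88.89%. ENO1 and ENO2 are 94.82% identical over 1314 bp. The longest identical run was 173 bp for TDH2 and TDH3, 129 bp for TDH1 and TDH2, 92 bp for TDH1 and TDH3 and 112 bp for the enolase pair. The sequences below show where fragments can be told apart: they are the 60-base coding window of each family with the most differing positions, 21 for TDH and 13 for ENO, with those positions in capitals. They are RefSeq R64 sequences, read along the coding strand, from base 64 to base 123 of the TDH genes and from base 340 to base 399 of the ENO genes.
TDH1 (chrX:338334-338393, plus strand): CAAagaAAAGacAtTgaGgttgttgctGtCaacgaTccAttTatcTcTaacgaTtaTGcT
TDH2 (chrX:454559-454618, minus strand): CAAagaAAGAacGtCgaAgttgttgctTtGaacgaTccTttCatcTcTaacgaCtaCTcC
TDH3 (chrVII:883688-883747, minus strand): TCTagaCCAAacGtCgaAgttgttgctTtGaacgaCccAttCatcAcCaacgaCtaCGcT
ENO1 (chrVII:1001266-1001325, plus strand): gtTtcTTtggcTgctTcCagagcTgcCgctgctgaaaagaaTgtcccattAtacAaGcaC
ENO2 (chrVIII:451666-451725, plus strand): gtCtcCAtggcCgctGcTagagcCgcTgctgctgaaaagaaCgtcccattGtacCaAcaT
Over their whole coding sequence the TDH copies differ at 125 positions and the ENO copies at 68. Values of single copies below are uncertain to the extent that the authors' quantification shared fragments between them.

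The region upstream of each start codon was searched for letters bound by Rap1 and Gcr1, because these factors are known to drive many members. The motifs were ACCCANNCA, the core of the Rap1 site, and CTTCC, the Gcr1 site, on both strands within 1000 bp, chosen with the expression data known and not varied. Of the 10 members 6 held the Rap1 core, against 10.9% of 6002 nuclear coding genes, and 9 held CTTCC, against 88.8%. Both motifs, not overlapping and at most 30 bp apart, were found upstream of 5 members, PGK1, GPM1, ENO1, CDC19 and ADH1, and of 1.87% of all genes. These are shown with the motifs in capitals, 5 bases on each side, along the coding strand of the gene, and GGAAG is CTTCC on the other strand.
PGK1 (chrIII:137269-137299, plus strand): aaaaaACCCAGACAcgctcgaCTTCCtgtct
GPM1 (chrXI:164733-164784, minus strand): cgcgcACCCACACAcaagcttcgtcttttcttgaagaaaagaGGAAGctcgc
ENO1 (chrVII:1000439-1000473, plus strand): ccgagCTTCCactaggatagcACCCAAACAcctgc
CDC19 (chrI:71129-71157, plus strand): tgtacACCCAGACAtcgggCTTCCacaat
ADH1 (chrXV:161243-161283, minus strand): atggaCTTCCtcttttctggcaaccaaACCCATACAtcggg
The stretches begin 477, 399, 488, 657 and 689 bp before the start codons of PGK1, GPM1, ENO1, CDC19 and ADH1. TDH3 had 2 Rap1 cores and no CTTCC in the window, and TDH1, TDH2, ENO2 and PDC1 had CTTCC but no Rap1 core of these letters. A match is a description of the letters and not a measured site.

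The members had lower mean values in ESI+ libraries, and none of them passed the edgeR test over all genes. Together they held 17.4%, 10.02% and 9.98% of the estimated counts in ESI+ replicates 1, 2 and 3, against 28.6%, 28.3% and 14.4% in naive replicates 1, 2 and 3. The groups overlapped, because naive replicate 3 lay below ESI+ replicate 1. The means were 12.5% ± 4.27 in ESI+ and 23.8% ± 8.10 in naive libraries (SD, n = 3 each). As a share of TPM, the transcript abundance corrected for length, the members held 13.5%, 8.46% and 6.90% in ESI+ and 24.2%, 22.7% and 11.7% in naive replicates 1, 2 and 3.

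**Figure D1:**
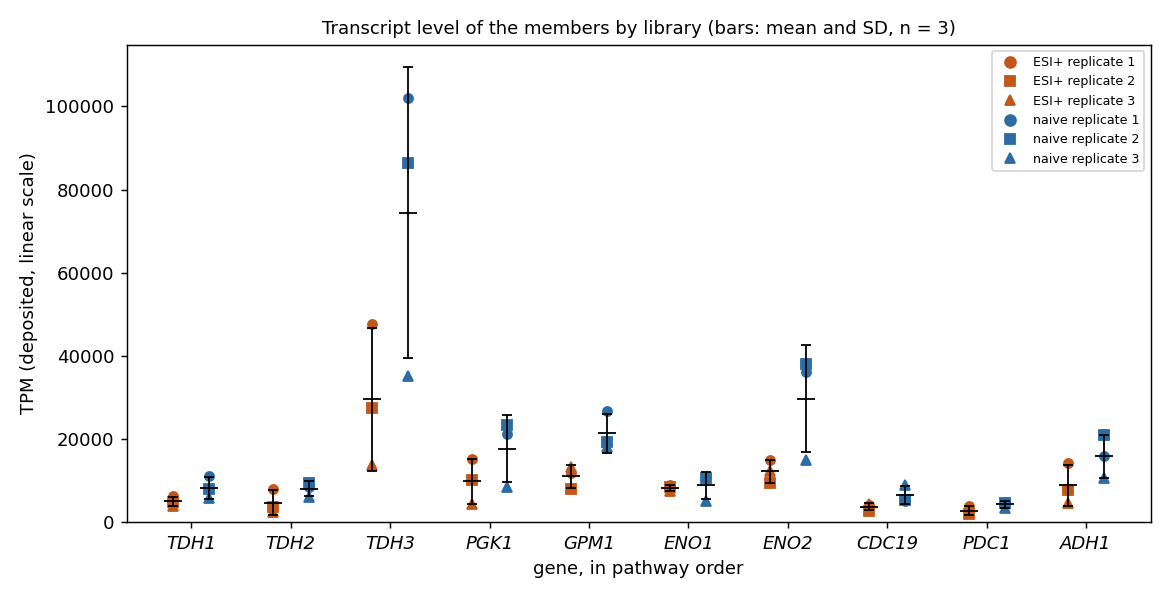
TPM of each member (linear axis) in the 3 ESI+ (orange) and 3 naive (blue) libraries, with symbols for replicates and bars for mean and SD. TDH3 is the highest member in every library, the naive replicates 1 and 2 are its highest values, and the groups of most members overlap.

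Per length, the order of the mean levels was the same in both groups: TDH3, ENO2, GPM1, PGK1, ADH1, ENO1, TDH1, TDH2, CDC19 and PDC1. TDH3 was above ENO2 in 6 of 6 libraries and CDC19 above PDC1 in 6 of 6. The neighbours between them were not separated: each was above the next in 3 or 4 of 6 libraries. The mean level of TDH3 was 29596 TPM in ESI+ and 74467 TPM in naive libraries, and that of PDC1, the lowest, 2778 TPM and 4278 TPM. In every library the lowest member still ranked among the 75 most abundant of the 2850 genes. In ESI+ replicates 1 and 2 the lowest member was PDC1, at rank 34 and 48. In ESI+ replicate 3 it was TDH2, at rank 75, with PDC1 at rank 66. In naive replicates 1, 2 and 3 it was PDC1, at rank 27, 30 and 31.

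The fit of ESI+ against naive over 2844 tested genes called none of the members. All 10 passed the filter on low counts. By edgeR's quasi-likelihood test at an adjusted p under 0.05, 0 of 10 members were called lower, against 1.65% of all tested genes, and 0 were called higher, against 6.26%. At an unadjusted p under 0.05, 2 members, TDH3 and ENO2, were on the lower side, against 10.6% of all genes, and without robust estimation of the spread 0 members were. Robust estimation was chosen after other settings had been seen, and edgeR called 0 members under each setting of the spread that was run. DESeq2 called 3 members lower at an adjusted p under 0.05 (TDH3, GPM1 and ENO2), against 145 of all 2844 tested genes. Limma on log2(TPM + 1) called 0 members, against 138 genes higher and 32 lower of 2850. At an unadjusted p under 0.05, DESeq2 had 9 members on the lower side, against 355 of 2844 genes, and limma 0, against 104 of 2850. By edgeR they were 8 without ESI+ replicate 1, against 366 of 2847 genes, and 0 without ESI+ replicate 2 or ESI+ replicate 3. All 10 log2 fold changes were negative, against 47.6% of all tested genes, and their median was -1.43, against 0.07 for all tested genes. The members share libraries and were chosen with results of these data known, so these counts describe the list.

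**Figure D2:**
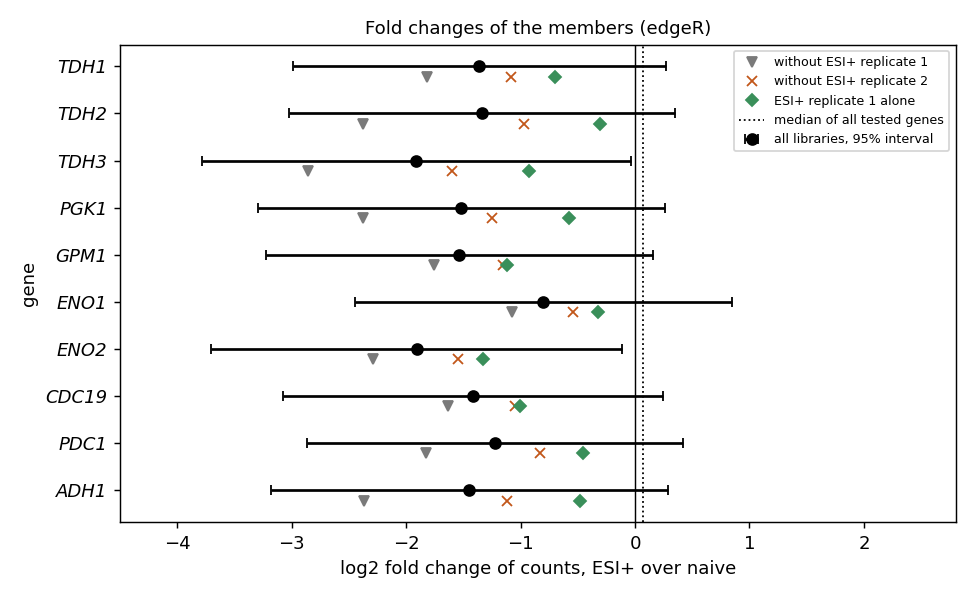
Log2 fold change (ESI+ over naive) of each member by edgeR with its 95% interval, and the values without ESI+ replicate 1, without ESI+ replicate 2 and with ESI+ replicate 1 as the only ESI+ library. All values are below 0 and below the dotted median of all tested genes (0.07), and those without ESI+ replicate 1 are the farthest from 0.

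TDH3 encodes the main glyceraldehyde-3-phosphate dehydrogenase of cells on glucose (YGR192C, chromosome VII, 882812 to 883810, 1 coding exon). It had 47763, 27378 and 13648 TPM in ESI+ replicates 1, 2 and 3, against 102009, 86331 and 35061 TPM in naive replicates 1, 2 and 3. The highest ESI+ library lay above the lowest naive library, so the groups overlapped. On the scale of normalised CPM its mean was 28292 ± 24533 in ESI+ and 106409 ± 49916 in naive libraries (SD, n = 3 each). TDH3 differed by -1.91 on the log2 scale (SE 0.92, edgeR adjusted p = 0.186; 95% interval -3.79 to -0.04). Without ESI+ replicate 1 it was -2.86 and passed (edgeR adjusted p = 0.0425), and with DESeq2 it passed at -1.92 (adjusted p = 0.023).

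TDH1 (YJL052W, chromosome X, 338271 to 339269) and TDH2 (YJR009C, chromosome X, 453683 to 454681) encode the minor copies, and TDH1 is known for its use in slow growth and stress. TDH1 had 6229, 4907 and 3850.0 TPM in ESI+ replicates 1 to 3, against 11085, 8035 and 5828 TPM in naive replicates 1 to 3. TDH2 had 8014, 3627 and 2358 TPM in ESI+ replicates 1 to 3, against 8565, 9549.9 and 6016 TPM in naive replicates 1 to 3. In both genes ESI+ replicate 1 lay above naive replicate 3. Their log2 fold changes were -1.36 (SE 0.80) and -1.34 (SE 0.83), and neither passed (edgeR adjusted p = 0.28 and 0.307). Without ESI+ replicate 1 TDH2 was at -2.38 and just passed (edgeR adjusted p = 0.0499).

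PGK1, the kinase that makes the first ATP of the payoff phase (YCR012W, chromosome III, 137746 to 138996), had 15110.2, 10243 and 4324 TPM in ESI+ replicates 1 to 3, against 21303, 23442 and 8431 TPM in naive replicates 1 to 3. ESI+ replicates 1 and 2 lay above naive replicate 3. PGK1 differed by -1.52 on the log2 scale (SE 0.87, edgeR adjusted p = 0.27).

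GPM1 (YKL152C, chromosome XI, 163642 to 164385) converts 3-phosphoglycerate to 2-phosphoglycerate. It had 11888, 7971 and 13338 TPM in ESI+ replicates 1 to 3, against 26706, 19359 and 18102 TPM in naive replicates 1 to 3. Every ESI+ library lay below every naive library, both in TPM and in normalised CPM. GPM1 differed by -1.53 on the log2 scale (SE 0.83, edgeR adjusted p = 0.238), and DESeq2 called it lower (adjusted p = 0.0335).

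The enolase copies differed from each other in how they compared between the groups. ENO2 (YHR174W, chromosome VIII, 451327 to 452640), the copy known to be used on glucose, had 15034, 9522 and 12351 TPM in ESI+ replicates 1 to 3, against 36015, 38176 and 15010.3 TPM in naive replicates 1 to 3. In TPM, ESI+ replicate 1 and naive replicate 3 had nearly the same value. ENO1 (YGR254W, chromosome VII, 1000927 to 1002240), which is known to be induced when glucose is scarce, had 8917, 8456 and 7462 TPM in ESI+ replicates 1 to 3, against 10772, 10707 and 5117 TPM in naive replicates 1 to 3. In TPM all 3 ESI+ values of ENO1 lay inside the naive range. In normalised CPM ESI+ replicate 2, at 6400, lay below the naive range of 10382 to 24728. The log2 fold change of ENO2 was -1.91 (SE 0.88, edgeR adjusted p = 0.165), and DESeq2 called it lower (adjusted p = 0.0132). That of ENO1 was -0.80 (SE 0.81, edgeR adjusted p = 0.558), the nearest to 0 of the 10 members. On the log2(TPM + 1) scale, with a median of 0.64 over all genes, limma gave ENO1 a difference of -0.02 and ENO2 one of -1.18.

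The share of ENO1 in the enolase transcripts does not depend on the scaling between libraries. It was 37.2%, 47.0% and 37.7% of the enolase TPM in ESI+ replicates 1 to 3, against 23.0%, 21.9% and 25.4% in naive replicates 1 to 3. Every ESI+ library lay above every naive library. The mean was 40.6% ± 5.54 in ESI+ and 23.4% ± 1.80 in naive libraries (SD, n = 3 each), a difference of 17.2 percentage points. A two-sided exact permutation test gave p = 0.1, the smallest that 3 against 3 libraries can give, and p = 0.4 when adjusted over the 4 shares tested. Without any single library the difference stayed between 13.99 and 18.9 percentage points. The lower of these came without ESI+ replicate 2. As shares of estimated counts the ESI+ values were 37.9%, 47.8% and 38.4%, against 23.5%, 22.4% and 26.0% in naive libraries.

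Among the TDH copies the groups overlapped. TDH3 made up 77.0%, 76.2% and 68.7% of the TDH TPM in ESI+ replicates 1 to 3, against 83.8%, 83.1% and 74.8% in naive replicates 1 to 3 (two-sided exact permutation p = 0.3). TDH1 made up 14.4% ± 4.71 in ESI+ and 9.76% ± 2.41 in naive libraries (SD, n = 3 each; exact permutation p = 0.2). TDH2 made up 11.6% ± 1.43 in ESI+ and 9.69% ± 2.92 in naive libraries (SD, n = 3 each; exact permutation p = 0.4). In both groups the replicate 3 library had the lowest share of TDH3 and the highest share of TDH1. Without ESI+ replicate 3 the difference was -3.92 percentage points for TDH3, against -6.56 with all libraries, and 2.10 for TDH1, against 4.61. Without naive replicate 1 that of TDH2 was 0.63 percentage points, against 1.95.

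**Figure D3:**
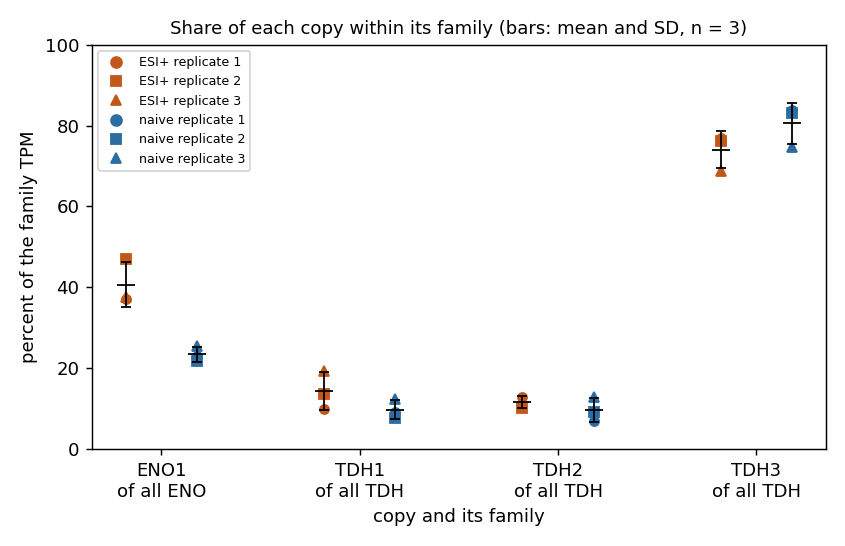
Share of ENO1 in the enolase TPM and of each TDH copy in the TDH TPM (percent) in the ESI+ (orange) and naive (blue) libraries, with bars for mean and SD. The 3 ESI+ values of ENO1, 37.2% to 47.0%, lie above the 3 naive values, 21.9% to 25.4%, whereas the TDH shares overlap.

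CDC19, the main pyruvate kinase (YAL038W, chromosome I, 71786 to 73288), had 4041, 2785 and 4500.0 TPM in ESI+ replicates 1 to 3, against 5150.0, 5411 and 9003 TPM in naive replicates 1 to 3. The groups did not overlap in TPM or in normalised CPM. In TPM replicate 3 was the highest library of each group, unlike in the other members apart from GPM1 in ESI+ libraries. In normalised CPM ESI+ replicate 1 was the highest ESI+ library of CDC19, at 7726 against 7124 in ESI+ replicate 3. CDC19 differed by -1.42 on the log2 scale (SE 0.81, edgeR adjusted p = 0.269). Its profile over the 6 libraries was the farthest from the mean profile of the members, by a root mean square difference of 0.60 on the log2 CPM scale, against 0.18 for TDH1, the nearest member.

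The fermentation genes were the lowest and a middle member of the list by level. PDC1 (YLR044C, chromosome XII, 232390 to 234081), the main pyruvate decarboxylase, had 3981, 1876 and 2478 TPM in ESI+ replicates 1 to 3, against 4753, 4715 and 3367 TPM in naive replicates 1 to 3. ADH1 (YOL086C, chromosome XV, 159548 to 160594), the alcohol dehydrogenase that makes ethanol, had 14291, 7786 and 4645 TPM in ESI+ replicates 1 to 3, against 15894, 21030.1 and 10754 TPM in naive replicates 1 to 3. In both genes ESI+ replicate 1 lay above naive replicate 3, and the lowest library was an ESI+ one. The log2 fold changes were -1.22 (SE 0.81, edgeR adjusted p = 0.337) for PDC1 and -1.45 (SE 0.85, edgeR adjusted p = 0.281) for ADH1.

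In normalised CPM, 5 of the 10 members (TDH1, GPM1, ENO2, CDC19 and PDC1) had all ESI+ libraries below all naive libraries, against 14.6% of all tested genes. In TPM 2 of them did, GPM1 and CDC19, and the share of all genes that did so in TPM was not counted. Relative to each gene's mean over all libraries, the members averaged 0.17, -1.64 and -0.94 on the log2 CPM scale in ESI+ replicates 1, 2 and 3, against 0.93, 1.19 and 0.29 in naive replicates 1, 2 and 3. ESI+ replicate 1 was thus close to naive replicate 3, and ESI+ replicate 2 was the lowest library. With ESI+ replicate 1 as the only ESI+ library the median log2 fold change of the members was -0.64, and without ESI+ replicate 2 it was -1.10. The genes outside the list whose profiles were most like the mean of the members were CUZ1, ELO3, CIS3, HSP150 and ZEO1, with root mean square differences of 0.16, 0.20, 0.21, 0.23 and 0.23 on the log2 CPM scale over 6 libraries.

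The deposited tables list several isoforms for each member except PGK1, from 3 for TDH1 and TDH2 to 21 for CDC19, and in TDH3, ENO1 and ENO2 the isoform assigned the most transcripts in every naive library was not the one assigned the most in any ESI+ library. The TDH3 isoform of 1109 bp held 14.85%, 7.39% and 31.8% of the TDH3 TPM in ESI+ replicates 1 to 3, against 75.6%, 86.1% and 82.3% in naive replicates 1 to 3. The ENO2 isoform of 1468 bp held 16.2%, 10.9% and 38.95% of the ENO2 TPM in ESI+ replicates 1 to 3, against 88.8%, 92.0% and 82.1% in naive replicates 1 to 3. In both genes the groups were far apart, and ESI+ replicate 1 lay with the other ESI+ libraries. In ESI+ libraries longer isoforms took the rest: for ENO2 the isoform of 1476 bp held 83.8%, 89.1% and 60.1%, against 11.2%, 7.97% and 17.9% in naive libraries. The ENO1 isoform of 1503 bp held 0.52%, 9.28% and 15.2% in ESI+ replicates 1 to 3, against 51.0%, 74.5% and 57.3% in naive replicates 1 to 3, while that of 1511 bp held 46.2%, 59.0% and 73.9%, against 4.06%, 13.6% and 14.5%. The isoforms named here were chosen after their values were seen. The share of all genes whose top isoform changed in this way was not counted, so the change cannot be called particular to these genes. Assignment between isoforms of close length also varied within the naive group. The TDH1 isoform of 1130 bp held 84.3%, 2.6% and 7.1% of the TDH1 TPM in naive replicates 1 to 3. That of 1137 bp held 2.1%, 87.1% and 84.1%. The CDC19 isoform of 1689 bp held 52.3%, 24.4% and 12.8% in naive replicates 1 to 3. How far the quantification can separate isoforms of close length was not tested, so the shares describe its assignment.

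The mean isoform length, weighted by TPM, uses every isoform of a gene. The measure itself was added after the isoform shares were seen, and its minimum of 50 counts was set with results at 10, 50 and 200 counts in view. For TDH3 it was 1134, 1137 and 1147 bp in ESI+ replicates 1 to 3, against 1116, 1117 and 1119 bp in naive replicates 1 to 3. For ENO2 it was 1475, 1475 and 1473 bp in ESI+ libraries, against 1469, 1469 and 1469 bp in naive libraries. The ESI+ values lay above all naive values in 6 of the 9 members with several isoforms (TDH1, TDH2, TDH3, ENO1, ENO2 and ADH1), against 18.8% of 882 genes with several isoforms and at least 50 estimated counts in every library. The differences of the means in these 6 were 19.0, 23.3, 22.2, 6.73, 5.22 and 6.14 bp. PDC1 went the other way, with 1827, 1818 and 1824 bp in ESI+ replicates 1 to 3 and 1827 bp in each naive library. ESI+ replicate 1, at 1826.9 bp, lay only just below the lowest naive library, at 1826.98 bp. The PDC1 difference thus rests on ESI+ replicates 2 and 3. The difference of the PDC1 means was -4.22 bp, and -1.79 bp without ESI+ replicate 2. Shorter ESI+ values that do not overlap the naive ones were found in 0.68% of those genes.

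GPM1 and CDC19 overlapped in mean isoform length. The difference of the GPM1 means was 2.20 bp, and 0.24 bp without ESI+ replicate 1. CDC19 had 1707 and 1715 bp in ESI+ replicates 1 and 2 and 1686 bp in ESI+ replicate 3, against 1684 to 1689 bp in naive libraries. The lengthening was not special to the members in direction: 81.4% of the 882 genes had a longer mean isoform in ESI+ libraries, with a median difference of 7.84 bp, against 6.73 bp for the 9 members. Where the count minimum was 200 in every library, 23.8% of 248 genes lay above all naive values, and the count of members was 6 at each minimum. The isoforms of a member span 13 bp in length for ENO2 and up to 251 bp for ADH1, and where in the transcript they differ was not analysed here.

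**Figure D4:**
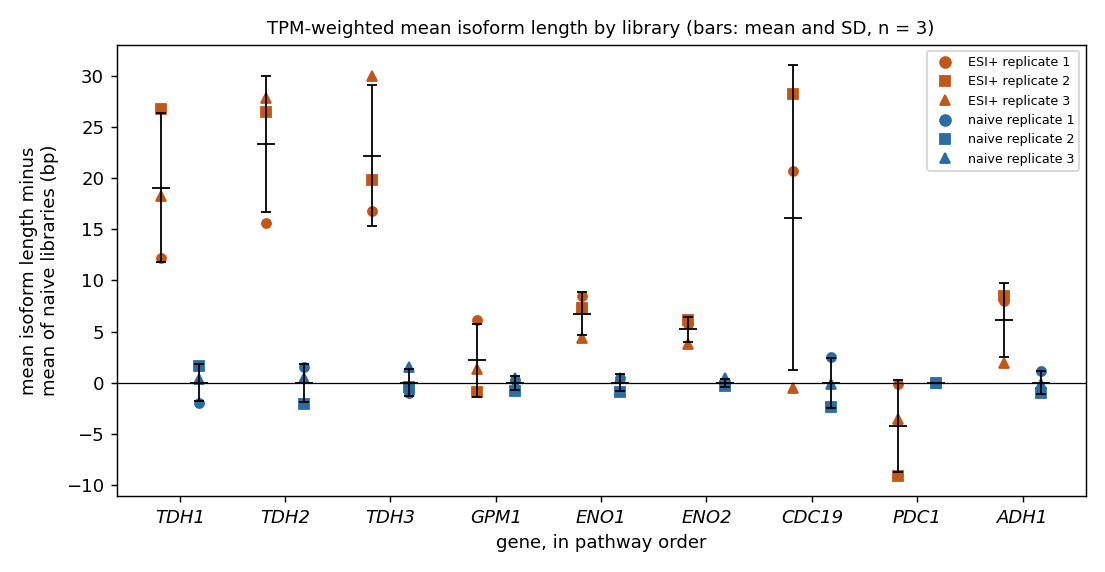
TPM-weighted mean isoform length of the 9 members with several isoforms, as the difference in bp from the mean of the naive libraries, in ESI+ (orange) and naive (blue) libraries, with bars for mean and SD. The ESI+ values of TDH1, TDH2, TDH3, ENO1, ENO2 and ADH1 lie above all naive values. Those of PDC1 lie below, ESI+ replicate 1 only just, and the ESI+ values of CDC19 are split.

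Neighbouring genes of the pathway were read from lists, in the same edgeR fit. Of the 8 genes of upper glycolysis 0 were called in either direction, 7 had negative log2 fold changes, and the median was -0.96. The hexokinase gene HXK2 had -1.35 (SE 0.71, edgeR adjusted p = 0.225), the glucose-6-phosphate isomerase gene PGI1 -1.36 (SE 0.79, adjusted p = 0.273), the aldolase gene FBA1 -1.37 (SE 0.83, adjusted p = 0.295) and the triose phosphate isomerase gene TPI1 -1.12 (SE 0.78, adjusted p = 0.37). The other 3 genes with negative values lay nearer to 0, at -0.25 for GLK1, -0.67 for PFK1 and -0.81 for PFK2, and were added here after their values were seen. HXK1, a hexokinase that is repressed by glucose, was the gene with a positive value, 0.57 (SE 0.75, edgeR adjusted p = 0.661).

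Pyruvate dehydrogenase competes with PDC1 for pyruvate and uses it in the mitochondrion. None of its 5 listed genes was called, all 5 had negative log2 fold changes, and the median was -1.55. LAT1 had -1.80 (SE 0.69, edgeR adjusted p = 0.0963), PDB1 -1.67 (SE 0.63, adjusted p = 0.0917), PDA1 -1.55 (SE 0.67, adjusted p = 0.134) and LPD1 -0.57 (SE 0.48, adjusted p = 0.459). LAT1, PDB1 and PDA1 had an unadjusted p under 0.05. In the glycerol branch, which draws carbon off above the TDH step, 0 of 3 tested genes were called and the median was -1.28. GPP2, a glycerol phosphatase gene, had -1.28 (SE 0.46, edgeR adjusted p = 0.0749), GPD1 had -1.29 (SE 0.64, adjusted p = 0.199) and GPP1 -0.89 (SE 0.62, adjusted p = 0.365).

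Of 8 other listed ethanol and acetate genes 0 were called, 5 had negative values and the median was -0.19. ACS2, the acetyl-CoA synthetase gene used on glucose, had -1.30 (SE 0.48, edgeR adjusted p = 0.0852), and ADH4 had 0.91 (SE 0.49, adjusted p = 0.242), with SFA1 at -0.64 (adjusted p = 0.463) and ADH3 at -0.70 (adjusted p = 0.52). Gluconeogenesis held the only neighbour that passed: PCK1, the phosphoenolpyruvate carboxykinase gene, rose by 1.91 on the log2 scale (SE 0.60, edgeR adjusted p = 0.0492). PCK1 had 94.2, 316 and 37.6 normalised CPM in ESI+ replicates 1 to 3, against 27.5, 39.4 and 54.5 in naive replicates 1 to 3, so its groups overlapped and its highest value was in ESI+ replicate 2. The call was lost without ESI+ replicate 2 (log2 fold change 0.75, edgeR adjusted p = 0.409) and without ESI+ replicate 1 (2.21, adjusted p = 0.0693). It was also lost without naive replicate 1, 2 or 3 (edgeR adjusted p = 0.0949, 0.0819 and 0.0668), and kept without ESI+ replicate 3 (2.34, edgeR adjusted p = 6.31e-05). Without robust estimation the edgeR adjusted p was 0.051, with the 50-count filter 0.0512 and with effective-length offsets 0.0519. The replicate block gave 1.49 (edgeR adjusted p = 0.132) and limma on log2(TPM + 1) an adjusted p of 0.156, whereas DESeq2 called PCK1 (adjusted p = 0.0416). PYC2 and MDH2 of the same list had 0.30 (edgeR adjusted p = 0.743) and -0.20 (adjusted p = 0.812). The minor isozyme genes PYK2 and GPM3 had 0.08 and 0.30 (edgeR adjusted p = 0.917 and 0.771), and REB1, the tested gene of the regulator list, had 0.62 (adjusted p = 0.411).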

How the data were processed

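Polyadenylated RNA of 6 yeast cultures, 3 ESI+ and 3 naive, was analysed from 1 deposited table per library. Kallisto 0.43.1 and build R64 are named in the submitters' processing notes. Per the file headers, the authors deposited estimated counts and TPM for 17906 isoforms. The estimated counts deposited by the authors are fragments assigned to an isoform, with shared fragments divided among isoforms. The TPM deposited by the authors are scaled for effective length and to the same total per library. Options, the source of the isoform models and strand handling are not given in the sources used here. Values were summed over isoforms per gene, 2849 of 2850 names matched the R64 reference table, and estimated counts were rounded to whole numbers for count tests.

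ESI+ was compared with naive by edgeR 4.0.16 (R 4.3.3) with its default filter (minimum count 10), TMM scaling, a robust quasi-likelihood test, no replicate block, and Benjamini-Hochberg adjusted p under 0.05 among 2844 genes. A positive log2 fold change is higher in ESI+, and its SE is the change over the root of F. The design had named neither robust estimation in edgeR nor a mean-variance trend in limma. The first fits had neither. After 10 settings of edgeR and 4 of limma had been run and their counts seen, both options were taken because their counts matched an earlier analysis of these data. The other settings are among the alternatives. ENO2, the member with the smallest p, had an edgeR adjusted p of 0.165 in the fit taken and of 0.165 to 0.434 under the other settings.

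Shares were compared by two-sided exact permutation tests over 20 splits, whose smallest p is 0.1. Alternatives used DESeq2 1.42.0, limma 3.58.1 on log2 TPM, other filters and scalings, and left-out libraries. Sequences were read from RefSeq R64 with Biopython 1.88. All members were described, and up to 4 genes per neighbouring list, those with the smallest p, were named. HXK1, GLK1, PFK1 and PFK2 were named after their values were seen. The members and lists were chosen with earlier results of these data known. Nothing in the labels says that replicates came from separate colonies, so p-values measure the spread between these cultures. Library totals of 316485 to 5934050 estimated counts limit precision most in ESI+ replicate 3.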

Additional observations from a re-analysis of the deposited data

How the results depend on the processing

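All 307 values recomputed for single members under 31 alternatives stayed negative. Of these, 5 newly passed: TDH3, GPM1 and ENO2 with DESeq2, and TDH2 and TDH3 without ESI+ replicate 1. The number of members called lower was 3 with DESeq2, against 145 of 2844 genes, and 0 to 2 with 1 library left out. The 2 came without ESI+ replicate 1, where 87 of 2847 genes were called lower. No member was called higher under these alternatives. The median log2 fold change of the members was -2.06 to -1.10 with 1 library left out. It was -0.64 with ESI+ replicate 1 as the only ESI+ library.

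Over all genes 178 were called higher and 47 lower. With 1 library left out these counts were 2 to 331 and 0 to 87, the lowest without ESI+ replicate 2, and the most genes called lower came without ESI+ replicate 1. There were 145 lower with DESeq2, and 96 higher and 20 lower by limma with log2(TPM + 0.1). The causes of these changes were not tested. On the log2(TPM + 1) scale the members' median was -0.91, or -1.55 relative to that of all genes.

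The alternatives from here to the end of this paragraph were added after seeing the data. Without robust estimation edgeR called 150 higher and 28 lower. With edgeR's bias-adjusted deviance 83 were called lower, with or without robust dispersions, or 75 where no gene dispersions were estimated first. Without its trend limma called 0 in either direction (628 higher and 27 lower at an unadjusted p under 0.05), and 0 also with robust estimation. With both trend and robust estimation it called 148 higher and 25 lower. Without both replicate 3 libraries 6 genes were called lower. With ESI+ replicate 1 alone edgeR called 0 in either direction (223 higher and 124 lower at an unadjusted p under 0.05), and that lone library was assumed to vary like the naive ones.

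The groups share replicate numbers in the labels, but same-numbered libraries did not deviate together (r = -0.06, -0.21 and -0.04 over 2844 genes), so the block was not used in the reported fit. Both replicate 3 libraries had high URA3. With the replicate number as a block, 67 genes were called higher and 25 lower, and 0 members were called.

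The share of counts in the members differed by -16.0 to -8.87 percentage points with 1 library left out, and the copy shares and mean isoform lengths kept their direction, with differences that moved by over 1.5 times for the TDH shares (TDH1 2.10 to 6.77, TDH2 0.63 to 3.52 and TDH3 -9.46 to -3.92 percentage points) and for the lengths of GPM1 (0.24 to 3.74 bp), CDC19 (10.1 to 24.45 bp) and PDC1 (-6.29 to -1.79 bp). In ESI+ replicate 3 TDH2 had 981 estimated counts, which limits isoform shares there.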
